A study of Rattus norvegicus with 74 samples.

Results

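A set of 40 genes of the cell division cycle was followed in rat liver, of which 38 were measured among the 14217 genes on the arrays. They were chosen by name, as textbook genes of G1, DNA replication and mitosis, and each measured gene was read from 1 probe set matching that gene alone, the brightest where there were several. Of the measured genes, 5 encode cyclins and kinases of G1 and S phase, 6 the replication helicase, 3 DNA synthesis and nucleotide supply, 9 mitotic entry, 6 the spindle checkpoint and anaphase, and 9 the spindle, chromosomes and cytokinesis. Rrm2 was seen only by 2 probe sets shared with Rrm2l1, and Tpx2 had no probe set naming it. Values are log2 hybridisation signals, so a difference of 1 is a doubling and a mean over genes is a mean of log2 values.

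The study measured liver RNA on 74 arrays from Wistar Han rats (Crl:WI(Han)), a wild-type outbred stock, given one of 4 agents by daily oral gavage. Phenobarbital, a barbiturate that activates the nuclear receptor CAR, was given at 0, 5 and 45 mg/kg. PCB126, a coplanar dioxin-like biphenyl that activates the AhR, was labelled 0, 10, 50 and 250 mg/kg. Such doses would be very high for this congener and the unit could not be checked, so PCB126 doses are given as labelled. PBDE-47, a tetrabrominated diphenyl ether flame retardant congener, and DE-71, a commercial polybrominated diphenyl ether mixture that contains it, were each given at 0, 0.1, 15 and 50 mg/kg. That made 15 groups, each with 5 arrays except 50 mg/kg DE-71 with 4, and each agent had its own 0 mg/kg animals. The labels state for all animals exposure in the womb and after birth until postnatal day 22, and for PBDE-47 and DE-71 that dams were dosed from gestation day 6 to 21, pups from postnatal day 12 to 21, and livers taken at postnatal day 22. Sex and litter were not given, so each p-value below measures only the spread between these samples, which may include littermates.

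The rat liver still grows by hepatocyte division at weaning, and transcripts of cell cycle genes mark the cells that are passing through the cycle. Cyclin D1 couples growth signals to G1, cyclins E and A with their kinases start and drive S phase, the MCM helicase opens replication origins, and CDK1 with B cyclins and the polo and aurora kinases takes the cell into mitosis. In G0 and early G1 most of these genes are held off by the DREAM complex and RB, and they are switched on in waves, by E2F at the start of S phase and by MYB and FOXM1 before mitosis. Cyclin D1 belongs to neither wave and follows mitogens. CAR and AhR activators are both known to alter hepatocyte proliferation in adult rodents.

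Several arrays stood apart. Replicates 3 and 4 of 0 mg/kg PBDE-47, and replicates 1 and 2 of 15 mg/kg DE-71, differed by a root mean square of only 0.162 and 0.202 log2 units over the 300 most variable genes, where the next lowest pair of the same agent differed by 0.531, so each of these pairs was averaged and counted as 1 sample, leaving 72. Replicate 3 of 15 mg/kg and replicate 3 of 50 mg/kg PBDE-47 (0.105), and replicate 5 of 15 mg/kg and replicate 4 of 50 mg/kg DE-71 (0.124), were as close although labelled with different doses. They were kept. The DE-71 member means and unadjusted counts, Ccnd1 at 50 mg/kg and the Ncapd2 call are given without them too. Replicate 2 of 50 mg/kg PCB126 was the only array with high Xist (9.89) and low Eif2s3y (2.45), against Xist of 2.61 to 3.45 and Eif2s3y of 8.2 to 9.47 on the other 73. Replicate 2 of 50 mg/kg DE-71 had the lowest correlation with its own group, 0.978 against 0.984 to 0.995 on the others. Textbook targets of the agents had moved: Cyp2c7 rose by 6.20 at 45 mg/kg phenobarbital, 4.87 at 50 mg/kg PBDE-47 and 5.80 at 50 mg/kg DE-71, and Cyp1a1 rose by 4.24 at 250 mg/kg PCB126 (adjusted p = 2.4e-06, limma). Cyp1a1, an AhR target, also rose by 5.78 at 15 and 6.28 at 50 mg/kg DE-71, more than with PCB126. At 50 mg/kg PBDE-47 it rose by 2.11 (adjusted p = 0.0287, limma). Hepatocyte markers were high on every array, with Alb between 14.71 and 14.94.

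The mean of the 38 cell cycle genes ranged more widely between animals of a group than between most doses and their controls. Within groups its range was from 0.28 at 10 mg/kg PCB126 to 1.23 log2 units at 250 mg/kg PCB126. The SD within groups was between 0.11 and 0.52, pooled 0.29. Over all samples it ran from 6.18 in replicate 5 of 250 mg/kg PCB126 to 7.74 in replicate 1 of 0 mg/kg DE-71. That span of 1.56 log2 units or 2.94-fold crosses agents, which appeared to have been normalized separately. All 11 dose groups overlapped the range of their own controls. The dose mean was below the control mean in 8 of 11 comparisons, by up to 0.40 at 5 mg/kg phenobarbital and at 15 mg/kg DE-71. These differences, and that of -0.31 at 50 mg/kg DE-71, were larger than the pooled SD. In bulk liver, fewer dividing cells and less of these transcripts per dividing cell cannot be told apart.

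With phenobarbital, the lower dose had the lower mean. The controls had means of 6.99, 7.21, 7.30, 7.69 and 7.29 (mean 7.30 ± 0.25, SD, n = 5), in replicate order here and below. At 5 mg/kg the values were 6.99, 6.51, 7.29, 6.77 and 6.92 (6.90 ± 0.29, n = 5), all 5 below the control mean. At 45 mg/kg they were 7.18, 7.51, 7.48, 7.24 and 7.43 (7.37 ± 0.15, n = 5), within the range of the controls. The difference from the controls was -0.40 at 5 mg/kg, larger than the pooled SD, and 0.07 at 45 mg/kg, smaller than it. These differences share the same control animals.

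With PCB126 the groups held both the narrowest spread between animals, at 10 mg/kg, and the widest, at 250 mg/kg. The controls had 7.6, 6.54, 7.44, 7.16 and 7.21 (7.19 ± 0.41, n = 5), and at 10 mg/kg the values were 7.20, 7.28, 7.48, 7.37 and 7.22 (7.31 ± 0.11, n = 5). The 50 mg/kg animals had 6.98, 7.56, 7.37, 6.91 and 6.68 (7.10 ± 0.36, n = 5), the highest coming from the array with high Xist. At 250 mg/kg they were 7.41, 6.97, 7.30, 7.40 and 6.18 (7.05 ± 0.52, n = 5). One low animal among the controls, replicate 2, and one at 250 mg/kg, replicate 5, lay apart from the rest of their groups. The differences were 0.12, -0.09 and -0.14 at the rising doses, all within the pooled SD. Without replicate 5 the difference at 250 mg/kg was 0.08, without control replicate 2 that at 10 mg/kg was -0.04, and without the array with high Xist that at 50 mg/kg was -0.20.

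With PBDE-47 the dosed groups lay close to the controls. The controls had 7.59, 6.97, 7.03 and 7.49, the averaged arrays being the third value (7.27 ± 0.32, n = 4). At 0.1 mg/kg the values were 7.04, 6.71, 7.05, 7.19 and 7.34 (7.07 ± 0.23, n = 5), and at 15 mg/kg 6.89, 7.24, 7.31, 7.09 and 7.35 (7.18 ± 0.19, n = 5). The values at 50 mg/kg were 7.44, 7.18, 7.31, 7.13 and 7.47 (7.30 ± 0.15, n = 5), all within the control range. The differences of -0.21, -0.10 and 0.03 were all smaller than the pooled SD. Leaving out 1 sample at a time, they ran from -0.31 to -0.10, from -0.20 to 0.01 and from -0.07 to 0.14, with the first nearest 0 without control replicate 1 (-0.10), replicate 2 of 0.1 mg/kg (-0.12) or control replicate 5 (-0.13).

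With DE-71 the 15 and 50 mg/kg groups had the lower means. The controls had 7.74, 7.12, 7.45, 7.21 and 6.81 (7.26 ± 0.35, n = 5), and the 0.1 mg/kg animals 7.46, 7.20, 7.10, 7.29 and 6.92 (7.19 ± 0.20, n = 5). At 15 mg/kg the values were 7.06, 6.80, 6.91 and 6.66, the averaged arrays first (6.86 ± 0.17, n = 4). Replicates 2 to 5 of 50 mg/kg had 6.58, 7.34, 6.66 and 7.25 (6.96 ± 0.39, n = 4). All 4 samples at 15 mg/kg lay below the control mean and 2 of them below the lowest control, and the 50 mg/kg animals fell into a lower and a higher pair. The differences were -0.07, -0.40 and -0.31, the last of which was -0.18 without replicate 2 of 50 mg/kg. Without control replicate 1, the highest of all samples, they were 0.05, -0.29 and -0.19, and with both near-identical arrays of different doses left out the difference was -0.34 at 15 and -0.21 at 50 mg/kg.

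**Figure D1:**
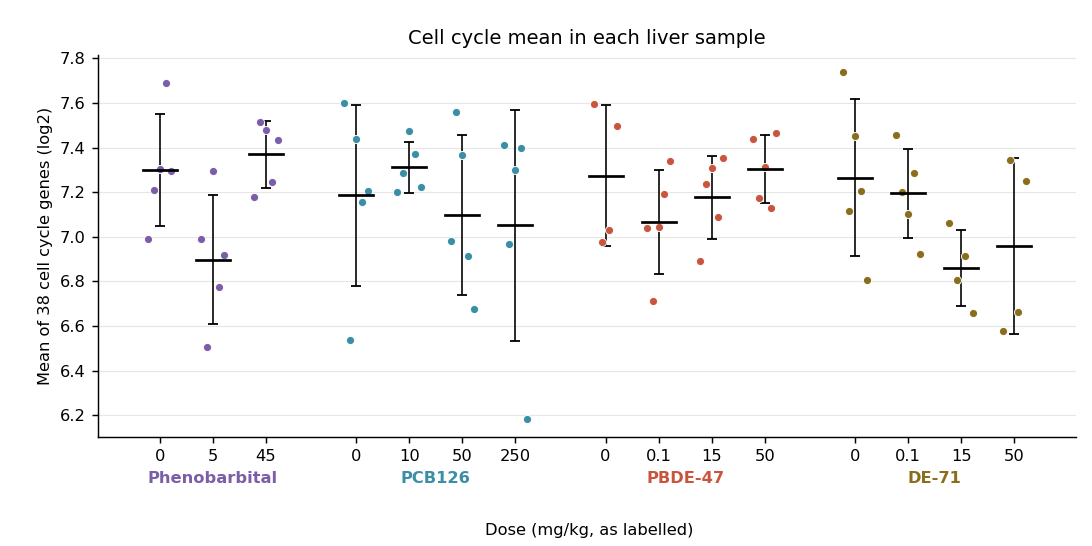
Mean log2 value of the 38 measured cell cycle genes in each sample (points), by agent and dose (mg/kg, as labelled), with the group mean (black line) and SD (bars). Every dose group overlaps the controls of its own agent, and single samples range from 6.18 to 7.74.

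The genes moved together from animal to animal. After each group's mean was taken off, the median correlation between 2 member genes was 0.69 over 703 pairs and 72 samples, which is a description of genes sharing the same samples. Each gene was also set against the mean of the other members: 29 reached r of 0.7 and 14 reached 0.9. Ccna2, the cyclin of S phase and mitotic entry, followed the others most closely (r = 0.96, 0.91 to 0.98 within the 4 agents), then Bub1, a kinase of the spindle checkpoint (0.95), and Prc1, which bundles microtubules at the midzone for cytokinesis (0.94). By role the median r was 0.91 for spindle, chromosomes and cytokinesis, 0.90 for checkpoint and anaphase, 0.83 for mitotic entry, 0.77 for DNA synthesis, 0.72 for the helicase and 0.56 for G1 and S phase cyclins and kinases. Only Cdc25b, a phosphatase that activates CDK1 (0.30), Ccnd1 (0.21) and Cdk2, the kinase partner of cyclins E and A (0.06), were below 0.5. A count of members that move in 1 direction is therefore not a count of independent genes.

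**Figure D2:**
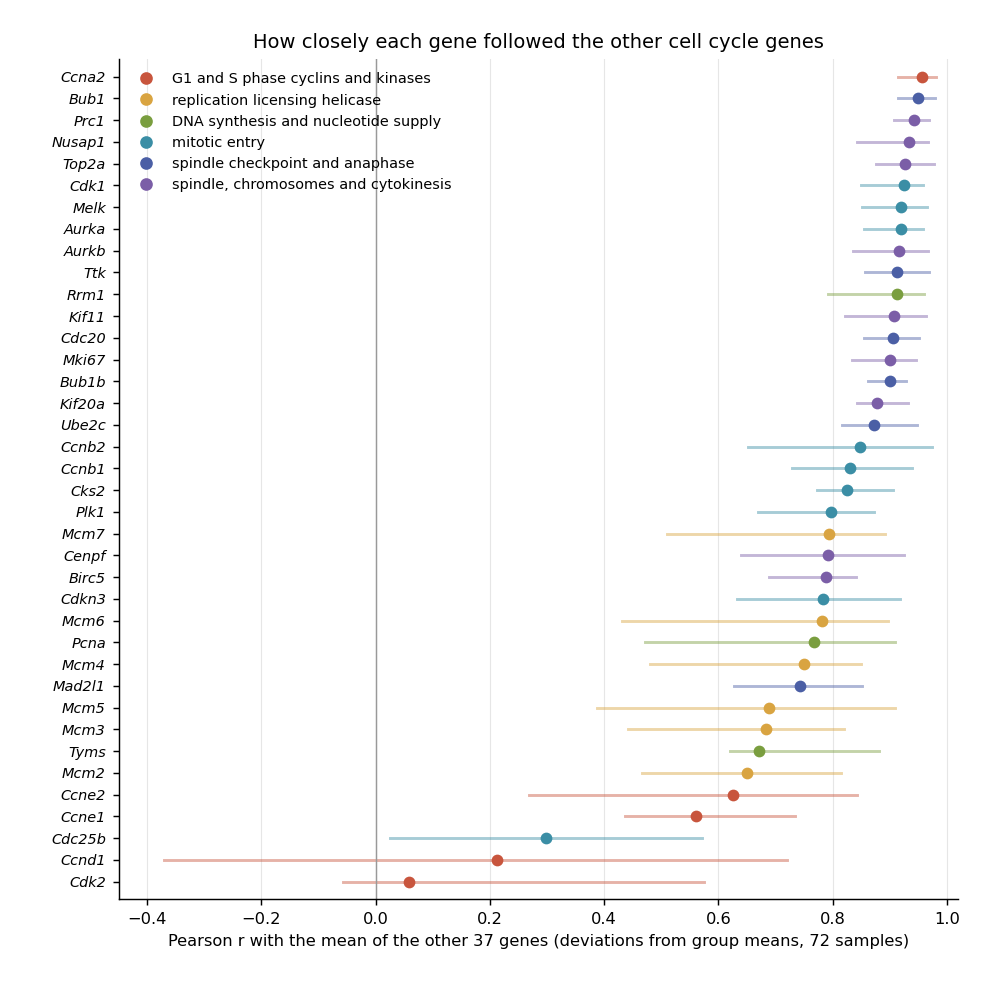
Correlation of each member with the mean of the other members over within-group deviations of 72 samples (dots), with the lowest to highest value within the 4 agents (lines), ordered by falling correlation and coloured by role. The role medians of mitotic genes lie between 0.83 and 0.91, Ccna2 is highest at 0.96, and Cdc25b, Ccnd1 and Cdk2 are the lowest at 0.30, 0.21 and 0.06.

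Other genes of the cycle, from lists of 104 further genes, moved with the members to a degree that differed by phase. The mean of 52 other mitosis genes had r = 0.98 with the member mean over the same 72 deviations, that of 26 other replication genes 0.85, and that of 13 other G1 control genes 0.69. The mean of 13 kinase inhibitors and brakes had 0.35, and 0.20 without the 2 samples farthest from the middle, which were replicate 5 of 250 mg/kg and replicate 2 of 0 mg/kg PCB126. Among markers of other cell types, hepatocytes had -0.27, lymphocytes -0.42, Kupffer cells -0.13, endothelium 0.11, stellate cells 0.18, neutrophils -0.12, cholangiocytes -0.02 and erythroid cells 0.02. A list of fetal and neonatal liver genes had 0.31, but from -0.65 to 0.66 within the agents.

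Promoters of 4 members are shown, and a link between their letters and the correlations was not tested. RefSeq gave a window of 250 bases before to 50 after the start (build GRCr8) for 32 of the 40 genes, and not for Aurkb, Ccna2, Ccnd1, Ccne2, Mcm4, Rrm2, Tpx2 and Ube2c. Exact letters were searched on both strands: TTTGAA, the core of the cell cycle homology region (CHR) bound by DREAM and by MYB with FOXM1; CCAAT, bound by NF-Y; and TTTCCCGC, TTTGGCGC, TTTGCCGC or TTTCGCGC, forms of the E2F site. Cdk1 and Prc1 stand for the mitotic genes, Mcm6 for the replication helicase, and Cdk2 for a member that hardly followed the rest. Capitals mark every match, in the orientation of the gene, so that a match on the other strand appears as its reverse complement, which for CCAAT is ATTGG.
Cdk1, chr20:19265043-19265342, plus strand: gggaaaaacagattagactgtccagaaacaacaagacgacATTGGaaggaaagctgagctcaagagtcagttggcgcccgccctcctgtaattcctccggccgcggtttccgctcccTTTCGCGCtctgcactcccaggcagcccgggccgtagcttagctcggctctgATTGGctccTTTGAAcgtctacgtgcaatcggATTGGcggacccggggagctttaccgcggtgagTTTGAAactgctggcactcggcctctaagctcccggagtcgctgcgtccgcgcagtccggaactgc
Prc1, chr1:143659231-143659530, plus strand: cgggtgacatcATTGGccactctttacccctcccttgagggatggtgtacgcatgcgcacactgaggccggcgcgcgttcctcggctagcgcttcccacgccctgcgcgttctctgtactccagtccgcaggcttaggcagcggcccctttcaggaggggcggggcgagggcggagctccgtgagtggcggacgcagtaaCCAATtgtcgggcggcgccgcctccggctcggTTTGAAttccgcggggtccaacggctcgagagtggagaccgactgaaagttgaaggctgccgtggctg
Mcm6, chr13:42404303-42404602, minus strand: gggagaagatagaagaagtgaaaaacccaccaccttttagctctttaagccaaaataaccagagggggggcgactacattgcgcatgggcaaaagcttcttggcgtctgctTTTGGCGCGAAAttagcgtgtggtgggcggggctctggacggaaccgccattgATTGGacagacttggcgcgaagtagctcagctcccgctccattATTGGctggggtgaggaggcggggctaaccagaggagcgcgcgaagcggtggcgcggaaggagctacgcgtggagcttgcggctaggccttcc
Cdk2, chr7:1721829-1722128, minus strand: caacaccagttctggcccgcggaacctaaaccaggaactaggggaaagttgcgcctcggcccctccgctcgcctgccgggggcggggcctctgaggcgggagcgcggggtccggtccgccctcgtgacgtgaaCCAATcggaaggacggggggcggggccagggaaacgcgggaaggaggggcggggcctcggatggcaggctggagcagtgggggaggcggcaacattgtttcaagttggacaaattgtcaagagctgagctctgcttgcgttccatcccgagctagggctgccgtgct
Counted from the start site, Cdk1 had TTTGAA at -72 and -16, CCAAT letters at -210, -81 and -49 and E2F letters at -133. Prc1 had TTTGAA at -18 and CCAAT letters at -239 and -50. Mcm6 had no TTTGAA but a pair of overlapping E2F matches at -139 and -135 and CCAAT letters at -86 and -43, and Cdk2 had only CCAAT, at -117. The same division ran through the set. TTTGAA was in 15 of 22 promoters of mitotic entry, checkpoint and spindle members (68.2%) and in 1 of 10 of the G1, helicase and DNA synthesis members (10.0%), beside 18.1% of all 27457 promoters. E2F letters were in 1 of the 22 (4.55%) and 6 of the 10 (60.0%), beside 2.25% of all promoters. The 1 of the 22 was Cdk1, so in this the printed Cdk1 was the exception among the mitotic genes. CCAAT was in 77.3% and 70.0%, beside 37.7%. The further lists divided alike, with TTTGAA in 65.5% of 55 mitosis promoters and 3.85% of 26 replication promoters, and E2F letters in 5.45% and 38.5%. A match is a description of the letters and not a bound site.

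Of the 418 tests of 38 members at 11 doses, 2 passed an adjusted p of 0.05 (limma, Benjamini-Hochberg over all 14217 genes), and both were Ccnd1. Ccnd1 encodes cyclin D1, the mitogen-driven partner of CDK4 and CDK6 in G1. It fell at 50 mg/kg PBDE-47, where 1 of 38 members was called beside 4.03% of all genes in either direction and 1.68% lower. It also fell at 50 mg/kg DE-71, where 1 of 38 was called beside 10.2% of all genes and 5.35% lower. Neither share of members exceeded the share of all genes called in either direction. No member was called at 5 (0.106% of all genes) or 45 mg/kg phenobarbital (2.7%), at 10 (0%), 50 (0.00703%) or 250 mg/kg PCB126 (0.0563%), at 0.1 (0%) or 15 mg/kg PBDE-47 (0.823%), or at 0.1 (0%) or 15 mg/kg DE-71 (1.24%).

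Ccnd1 was 8.31, 9.09, 8.97 and 9.39 in the PBDE-47 controls (8.94 ± 0.46, SD, n = 4). At 0.1 mg/kg it was 8.06, 8.14, 9.22, 9.11 and 8.08, and at 15 mg/kg 7.42, 9.40, 8.11, 8.08 and 8.43 (8.29 ± 0.72, n = 5). Its values at 50 mg/kg were 6.82, 7.25, 8.22, 7.79 and 8.06 (7.63 ± 0.58, n = 5). Every sample at 50 mg/kg lay below every control, and Ccnd1 was the 1 member of 38 to do so, beside 4.2% of all genes. The difference was -1.31 (SE 0.35, 95% interval -2.0 to -0.62), 2.48-fold lower, with an adjusted p of 0.0153 (limma). That p was 0.0508 without control replicate 2, 0.0617 without control replicate 5 and 0.0790 without replicate 1 of 50 mg/kg, with differences of -1.26, -1.16 and -1.11. With the near-identical arrays of 15 and 50 mg/kg left out, the difference was -1.46 (adjusted p = 0.0089, limma). At 15 mg/kg the difference of -0.65 (95% interval -1.34 to 0.04) did not pass (adjusted p = 0.487, limma).

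In the DE-71 controls Ccnd1 was 7.91, 8.85, 8.47, 8.28 and 8.56 (8.42 ± 0.35, n = 5). At 0.1 mg/kg it was 8.74, 7.92, 8.99, 8.67 and 8.95, and at 15 mg/kg 8.28, 8.12, 8.09 and 8.28 (8.19 ± 0.10, n = 4). In replicates 2 to 5 of 50 mg/kg it was 6.43, 6.67, 8.02 and 7.15 (7.07 ± 0.70, n = 4). All 4 lay below the control mean, but replicate 4, the array near-identical to one at 15 mg/kg, lay above the lowest control. The difference was -1.35 (SE 0.35, 95% interval -2.04 to -0.66), 2.55-fold lower, with an adjusted p of 0.00637 (limma). Without replicate 2 of 50 mg/kg it was -1.14 (adjusted p = 0.0865), with array weights it was -1.13 (adjusted p = 0.15), and with the near-identical arrays left out -1.67 (adjusted p = 0.0011).

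The 3 probe sets that match Ccnd1 alone gave the same calls. They differed at 50 mg/kg PBDE-47 by -1.11, -1.08 and -1.31 (adjusted p of 0.0081, 0.0079 and 0.0206, limma over probe sets), and at 50 mg/kg DE-71 by -1.03, -1.43 and -1.35 (adjusted p of 0.0091, 0.000107 and 0.0086). With phenobarbital, Ccnd1 was 9.09, 8.63, 8.84, 10.20 and 9.28 in the controls and 7.91, 9.05, 9.25, 8.64 and 8.68 at 45 mg/kg. These overlapped, with a difference of -0.50 (95% interval -1.15 to 0.15, adjusted p = 0.561, limma). With PCB126 the group means of Ccnd1 were 8.88, 8.72, 8.57 and 8.72 from 0 to 250 mg/kg, differing by less than the SD within these groups (0.50 to 0.63).

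None of the other G1 and S phase members was called at 50 mg/kg PBDE-47. Ccne1 differed by 0.02 there, Ccne2 by -0.03, Cdk2 by -0.20 (95% interval -0.52 to 0.12) and Ccna2 by 0.20 (-0.39 to 0.79), and the role mean with Ccnd1 was -0.26; their difference from Ccnd1 was not tested. With Ccnd1, Cdk2 and Cdc25b left out, the mean of the remaining members was 0.09 above the controls there, and -0.28 from them at 50 mg/kg DE-71. Ccna2 was 8.56, 7.51, 7.89, 7.66 and 6.93 in the DE-71 controls, 7.30, 6.87, 7.28 and 6.54 at 15 mg/kg, and 6.38, 7.75, 6.68 and 7.41 at 50 mg/kg. All 3 groups overlapped, with differences of -0.71 at 15 mg/kg (SE 0.30, adjusted p = 0.350, limma) and -0.65 at 50 mg/kg (adjusted p = 0.156). At 45 mg/kg phenobarbital, Ccne2, a cyclin E that starts S phase with CDK2, differed by 0.40 and was not called. Cdk2 ranged from 6.80 to 7.28 in the phenobarbital controls and from 6.91 to 7.34 at 45 mg/kg.

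**Figure D3:**
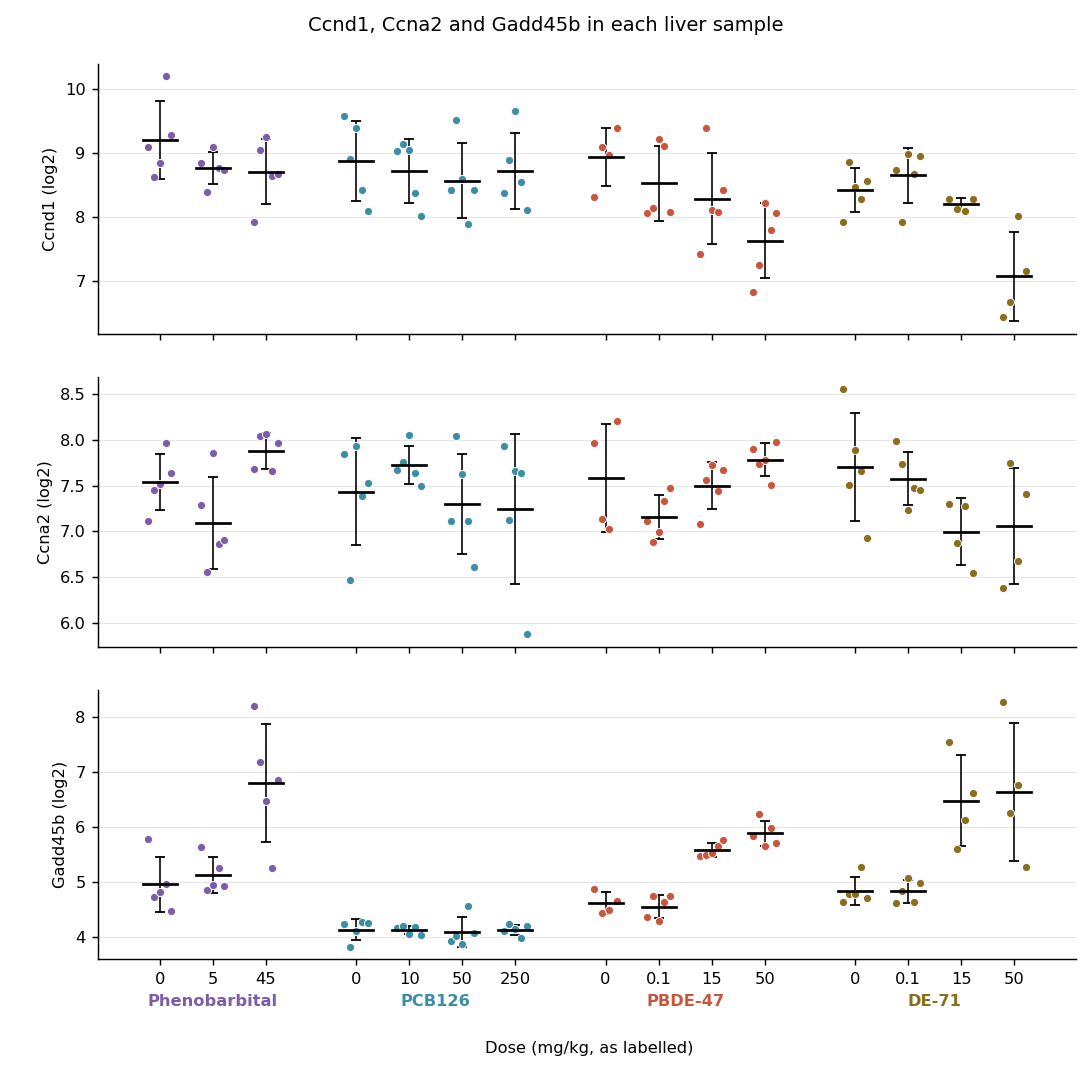
Log2 values of Ccnd1, Ccna2 and Gadd45b in each sample (points) by agent and dose (mg/kg, as labelled), with the group mean (black line) and SD (bars). Ccnd1 is lower at 50 mg/kg PBDE-47 and DE-71, and Ccna2 overlaps its controls there. Gadd45b is called higher at 45 mg/kg phenobarbital, 50 mg/kg PBDE-47, and 15 and 50 mg/kg DE-71. It overlaps its controls at 45 mg/kg phenobarbital and 50 mg/kg DE-71.

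The replication helicase members Mcm2 to Mcm7, which unwind DNA at the fork, had role means -0.28 from the controls at 5 mg/kg phenobarbital, -0.32 at 250 mg/kg PCB126, -0.25 at 15 mg/kg DE-71 and 0.01 at 50 mg/kg PBDE-47. The first 3 of these were -0.18 without control replicate 4, -0.17 without replicate 5 of 250 mg/kg and -0.15 without control replicate 1. Mcm7 was 8.79, 8.68, 8.99, 9.09 and 9.13 in the phenobarbital controls and 8.4, 8.15, 8.86, 8.34 and 8.50 at 5 mg/kg. The groups overlapped in 1 animal of the lower dose, and the difference was -0.49 (SE 0.15; unadjusted p = 0.0022, adjusted p = 0.337, limma), the lowest p of any member there. At 250 mg/kg PCB126 the 4 members of lowest p were Pcna, the sliding clamp of DNA polymerase, at -0.42 (adjusted p = 0.725, limma), Mcm5 at -0.40, Mcm3 at -0.38 and Mcm2 at -0.36. Pcna was 10.80, 9.84, 10.65, 10.26 and 10.22 in those controls and 10.08, 9.84, 10.20, 10.11 and 9.45 at 250 mg/kg, so the ranges overlapped. Those 4 were also all the members lower there at an unadjusted p below 0.05, beside 2.96% of all genes. The count was 0 without control replicate 1 or without replicate 5 of 250 mg/kg, 1 without control replicate 3, 2 with array weights, and 8 without control replicate 2. At 0.1 mg/kg DE-71 the lowest p was that of Mcm3, at -0.35 (adjusted p = 0.777, limma), then Mcm5 at -0.23, Birc5, a subunit of the chromosomal passenger complex, at -0.17 and Ccne1 at -0.15.

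DNA synthesis members had role means of -0.27 at 5 mg/kg phenobarbital, -0.21 at 250 mg/kg PCB126, -0.27 at 15 mg/kg DE-71 and 0.14 at 50 mg/kg PBDE-47. The PCB126 value was -0.07 without replicate 5 of 250 mg/kg, -0.10 without control replicate 1 and -0.34 without control replicate 2. The DE-71 value was -0.14 without control replicate 3, -0.17 without replicate 5 of 15 mg/kg and -0.41 without control replicate 5. At 45 mg/kg phenobarbital the lowest p was that of Pcna, at 0.31 (adjusted p = 0.419, limma), and Mcm4 stood at 0.32. At 0.1 mg/kg PBDE-47 it was that of Tyms, which makes thymidylate, at -0.40, with Cdkn3 at -0.42, Cks2 at -0.25 and Kif11 at -0.34 next (adjusted p of 1 for each). Rrm2, the small subunit of ribonucleotide reductase, could not be told from Rrm2l1. On 1 of its shared probe sets the difference was -0.72 at 15 mg/kg DE-71 and -0.20 at 5 mg/kg phenobarbital, with a within-group r of 0.75 to the member mean. On the other the differences were -0.06 and 0.33, with an r of 0.34.

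Mitotic members had their most negative estimates at 5 mg/kg phenobarbital and 15 mg/kg DE-71. At 5 mg/kg phenobarbital the role means were -0.48 for mitotic entry, -0.48 for checkpoint and anaphase and -0.50 for spindle, chromosomes and cytokinesis. Cdkn3, a phosphatase that acts on CDK2 and CDK1, was 7.6, 7.84, 7.68, 8.32 and 7.73 in the controls and 7.09, 6.49, 7.59, 6.99 and 7.19 at 5 mg/kg. Plk1, the polo kinase of mitotic entry and spindle poles, was 6.92, 7.09, 7.02, 7.38 and 7.01 in the controls and 6.74, 6.59, 6.86, 6.65 and 6.56 at 5 mg/kg. These were the 2 of 38 members whose 5 mg/kg samples all lay below all controls, beside 1.55% of all genes. The differences were -0.76 for Cdkn3 (SE 0.27, adjusted p = 0.481, limma), -0.58 for Ube2c, the ubiquitin conjugase of the anaphase-promoting complex (SE 0.21, adjusted p = 0.556), and -0.57 for Cdk1, the mitotic kinase (SE 0.23, adjusted p = 0.627).

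Over all members at 5 mg/kg phenobarbital, 37 of 38 had a negative estimate with a median of -0.44, where the median of all genes was -0.02. At an unadjusted p below 0.05, 18 members were lower, beside 3.89% of all genes. That count rested on single animals: it was 4 without control replicate 4, which had the highest member mean, 4 without replicate 2 of 5 mg/kg, which had the lowest, and 7 without replicate 4 of 5 mg/kg. The member mean differed by -0.30 in each of the first 2 of these cases. The count was 21 without control replicate 1, 23 without replicate 3 of 5 mg/kg, and 12 to 17 without any other single replicate. With array weights, or with phenobarbital arrays alone fitted, the count was 24. No gene of the marker lists of hepatocytes, erythroid cells, neutrophils, lymphocytes, Kupffer cells, endothelium, stellate cells or cholangiocytes was called at that dose. With 0.106% of all genes called there, the lack of a marker call says little about cell types, whose part was not tested.

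At 15 mg/kg DE-71 the role means were -0.44 for mitotic entry, -0.54 for checkpoint and anaphase and -0.48 for spindle, chromosomes and cytokinesis, the last of which was -0.32 without control replicate 1. Ttk, the kinase that starts the spindle checkpoint, was 6.64, 6.01, 6.52, 6.45 and 5.90 in the controls and 5.75, 5.56, 5.72 and 5.16 at 15 mg/kg. It was the 1 member of 38 with no overlap, beside 1.21% of all genes, and its difference was -0.76 (SE 0.25, adjusted p = 0.161, limma). Nusap1, a microtubule-bundling protein of the spindle, differed by -0.74 (adjusted p = 0.234) and Bub1 by -0.67 (adjusted p = 0.367). Over all members, 37 of 38 had a negative estimate with a median of -0.38, where that of all genes was -0.02, and 11 were lower at an unadjusted p below 0.05, beside 5.54% of all genes. The count was 2 without control replicate 1, 2 without replicate 5 of 15 mg/kg, 2 with both near-identical arrays of different doses left out, 5 without control replicate 3 and 7 without replicate 3 of 15 mg/kg. It was 20 without control replicate 5.

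At 50 mg/kg DE-71 the role means were -0.23 for mitotic entry, -0.39 for checkpoint and anaphase and -0.35 for spindle, chromosomes and cytokinesis. Without replicate 2 they were -0.11, -0.27 and -0.20, and without control replicate 1 -0.12, -0.26 and -0.19. Mitotic entry was also -0.12 without replicate 4 of 50 mg/kg, -0.38 without replicate 3 and -0.37 without control replicate 5. Mki67, the proliferation antigen that coats mitotic chromosomes, was 8.55, 7.38, 7.66, 7.77 and 7.34 in the controls and 6.0, 7.61, 6.89 and 7.48 at 50 mg/kg, a difference of -0.75 (adjusted p = 0.106, limma). Bub1b, which holds back anaphase in the checkpoint complex, was 6.47, 5.61, 5.83, 5.86 and 5.16 in the controls and 4.34, 5.42, 4.90 and 5.75 at 50 mg/kg, a difference of -0.68 (adjusted p = 0.0948). Both overlapped their controls, and replicate 2 was lowest in each. Mki67 was called without replicate 3 of 50 mg/kg (-0.95, adjusted p = 0.0433) and Bub1b without replicate 5 of 50 mg/kg (-0.90, adjusted p = 0.0344). Over all members 34 of 38 had a negative estimate with a median of -0.26, and 6 were lower at an unadjusted p below 0.05, beside 13.2% of all genes. None lay wholly below the controls, beside 2.9% of all genes. The count of 6 was 1 without replicate 2 of 50 mg/kg, without control replicate 1 or with array weights, 3 without control replicate 3, without replicate 4 of 50 mg/kg or with both near-identical arrays left out, 11 without replicate 5 of 50 mg/kg, 12 without control replicate 5 and 13 without replicate 3 of 50 mg/kg.

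At the remaining doses no mitotic member was called. At 0.1 mg/kg PBDE-47 all 24 mitotic members had negative estimates, and the role means were -0.25 for mitotic entry, -0.21 for checkpoint and anaphase and -0.23 for spindle, chromosomes and cytokinesis. Those means rested on single animals: they were -0.09, -0.04 and -0.06 without control replicate 1, and -0.14, -0.10 and -0.11 without replicate 2 of 0.1 mg/kg. With 50 mg/kg PBDE-47, Cdc25b differed by -0.36, Prc1 by 0.33 and Cdk1 by 0.32, and the role means were 0.07, 0.08 and 0.10. At 15 mg/kg PBDE-47, Mcm5 differed by -0.31, Plk1 by -0.24 and Mcm7 by -0.19 after Ccnd1. At 10 mg/kg PCB126, Cdc25b differed by -0.42, Mad2l1, a checkpoint protein that binds CDC20, by 0.36, Kif11, the spindle motor, by 0.29 and Cdk2 by 0.22. At 50 mg/kg PCB126, Top2a, the topoisomerase that untangles chromosomes, differed by -0.37, Mad2l1 by 0.29, Plk1 by -0.28 and Mcm5 by -0.24. None of these passed the adjusted threshold.

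**Figure D4:**
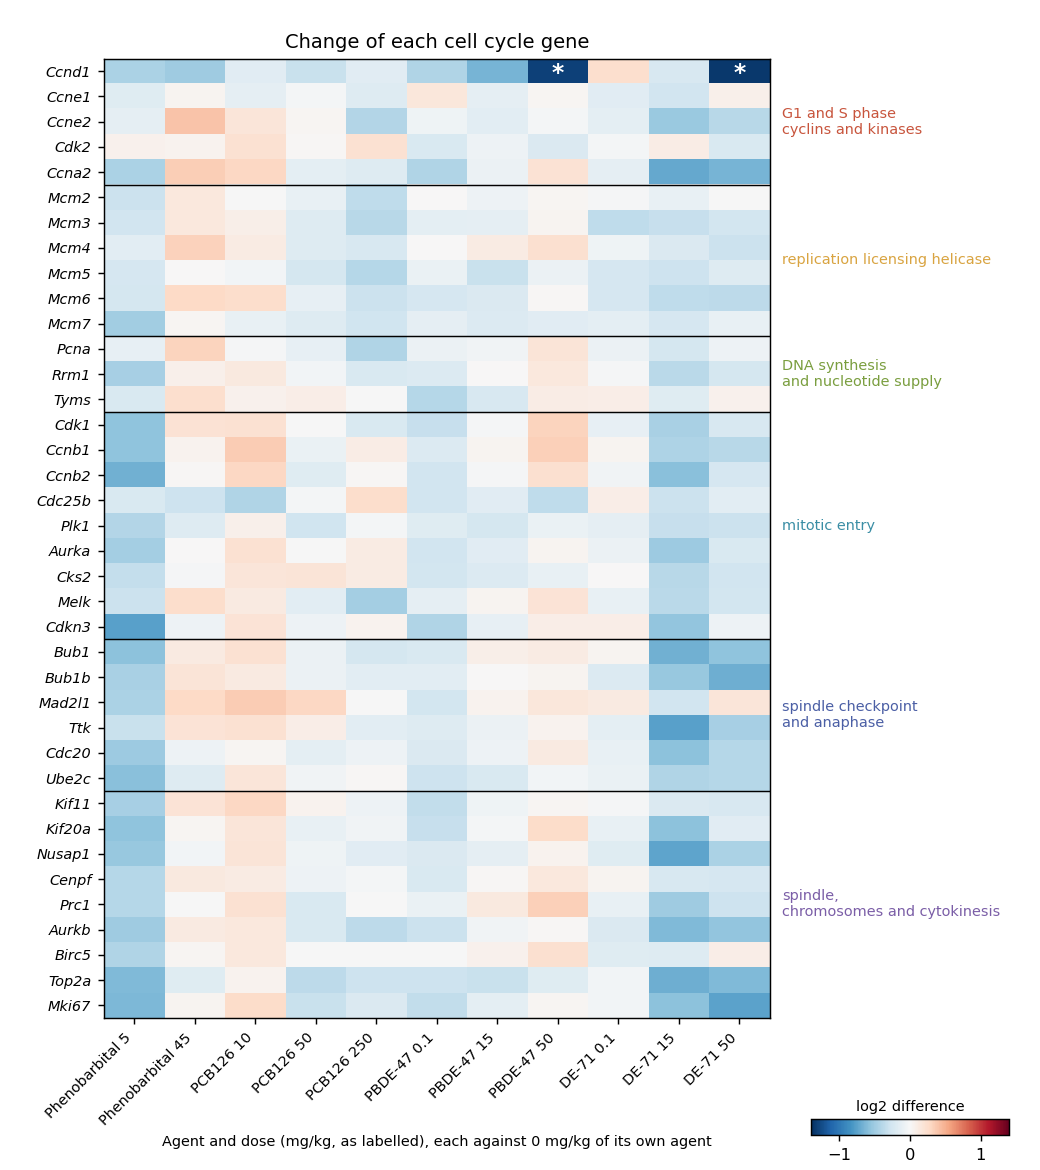
Log2 difference of each member from the 0 mg/kg animals of its own agent at 11 doses, grouped by role; the colour scale runs from -1.4 to 1.4 and a star marks an adjusted p below 0.05. The stars are on Ccnd1 at 50 mg/kg PBDE-47 (-1.31) and 50 mg/kg DE-71 (-1.35), and the columns for 5 mg/kg phenobarbital and 15 mg/kg DE-71 are lower in 37 of 38 members.

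The congener and the mixture were compared at their 3 matched doses, as the DE-71 difference minus the PBDE-47 difference, each against its own controls. No member was called at 0.1 mg/kg (0% of all genes called), 15 mg/kg (0.0141%) or 50 mg/kg (0.12%). For Ccnd1 the difference between agents was 0.65 at 0.1 mg/kg (95% interval -0.30 to 1.61), 0.43 at 15 mg/kg (-0.55 to 1.41) and -0.04 at 50 mg/kg (SE 0.49, -1.02 to 0.94). The adjusted p was 1.0, 0.974 and 0.988 (limma), and the intervals leave room for differences near 1 log2 unit in either direction at 50 mg/kg. The median over members was 0.18, -0.33 and -0.38. Among members the largest difference at 50 mg/kg was for Ccna2, at -0.85 (95% interval -1.69 to -0.01), with an unadjusted p of 0.0467 and an adjusted p of 0.430 (limma). At 15 mg/kg Bub1 differed by -0.75 and Ttk by -0.68.

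Among the 104 other cell cycle genes, the change that recurred was a rise of Gadd45b, a stress-induced gene of growth arrest and DNA damage that is also an immediate CAR target in rodent liver. It was the one gene of these lists called at 45 mg/kg phenobarbital, at 50 mg/kg PBDE-47 and at 15 mg/kg DE-71. That 1 of 104 was a smaller share than the 2.7%, 4.03% and 1.24% of all genes called at these doses. Gadd45b was 4.48 to 5.79 in the phenobarbital controls and 8.2, 7.19, 6.48, 5.25 and 6.86 at 45 mg/kg, a rise of 1.84 (SE 0.31, adjusted p = 3.2e-05, limma) with overlap in 1 animal. In the PBDE-47 controls it was 4.87, 4.43, 4.49 and 4.65, and at 50 mg/kg 5.84, 6.24, 5.66, 5.97 and 5.70, a rise of 1.27 (adjusted p = 0.0111). In the DE-71 controls it was 4.64 to 5.26, at 15 mg/kg 7.54, 5.60, 6.13 and 6.62 and at 50 mg/kg 8.27, 6.25, 6.76 and 5.26. The groups at 50 mg/kg PBDE-47 and 15 mg/kg DE-71 did not overlap their controls, and that at 50 mg/kg DE-71 did. The rises with DE-71 were 1.64 (adjusted p = 0.00119) and 1.80 (adjusted p = 6.97e-05), and the first had an adjusted p of 0.156 when DE-71 arrays alone were fitted. At 15 mg/kg PBDE-47 all 5 values (5.47 to 5.77) lay above the controls, with a difference of 0.97 (adjusted p = 0.165). In the PCB126 groups Gadd45b stayed between 3.81 and 4.55.

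A further 4 genes of these lists were called at 50 mg/kg DE-71, which with Gadd45b made 5 of 104, a smaller share than the 10.2% of all genes called there. Gadd45a, a p53-induced relative of Gadd45b, rose by 1.13 (adjusted p = 0.0150, limma). Ncapd2, a condensin subunit, fell by 0.87 (adjusted p = 0.0213), Rb1, the retinoblastoma protein that restrains E2F, fell by 0.47 (adjusted p = 0.0368), and Tob1, an antiproliferative gene, fell by 0.41 (adjusted p = 0.0433). Each lost its call without replicate 2 of 50 mg/kg, at adjusted p of 0.0732, 0.325, 0.354 and 0.341. Gadd45a also lost it without control replicate 4 (0.0720) or replicate 5 of 50 mg/kg (0.134), and Ncapd2 without control replicate 1 (0.0986). Ncapd2 lost it as well with the near-identical arrays of different doses left out (0.0526, limma). Rb1 lost it in 5 of 9 and Tob1 in 7 of 9 cases with 1 replicate left out. All 4 lost it when DE-71 arrays alone were fitted (adjusted p from 0.0846 for Ncapd2 to 0.229 for Tob1, limma) and with array weights (0.0555 for Gadd45a to 0.315 for Rb1). The 104 genes had medians of -0.27 at 5 mg/kg phenobarbital, -0.31 at 15 mg/kg DE-71 and -0.15 at 50 mg/kg DE-71, and 21, 29 and 14 of them were lower at an unadjusted p below 0.05, beside 3.89%, 5.54% and 13.2% of all genes. The last count is close to the share of all genes.

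Of 23 genes for growth signals, 2 were called at 45 mg/kg phenobarbital, beside 2.7% of all genes, and 2 at 50 mg/kg DE-71, beside 10.2% of all genes, a share that the list did not exceed. Igfbp3, which binds insulin-like growth factors in blood, fell by 0.75 at 45 mg/kg phenobarbital (adjusted p = 0.0239, limma) and by 0.79 at 50 mg/kg DE-71 (adjusted p = 0.0108). Tgfa, an EGF receptor ligand, rose by 0.39 at 45 mg/kg phenobarbital (adjusted p = 0.0434), and Egfr, that receptor, fell by 0.93 at 50 mg/kg DE-71 (adjusted p = 0.00634). Without replicate 2 of 50 mg/kg DE-71, Egfr had an adjusted p of 0.156 and Igfbp3 of 0.305. With DE-71 arrays alone these were 0.0986 and 0.0745 (limma), and with the mean over all probe sets of each gene 0.0625 and 0.0704; Igfbp3 had 0.158 with array weights. At 45 mg/kg phenobarbital, Igfbp3 lost its call in 3 and Tgfa in 7 of 10 cases with 1 replicate left out. With the mean over probe sets their adjusted p was 0.13 and 0.106, and Tgfa had 0.0971 when phenobarbital arrays alone were fitted (limma).

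Some markers of cell types were called at the doses where Ccnd1 fell. Of all genes, 4.03% were called at 50 mg/kg PBDE-47 (1.68% lower) and 10.2% at 50 mg/kg DE-71 (5.35% lower). At 50 mg/kg PBDE-47, 6 of 9 Kupffer cell markers fell (C1qa, C1qc, Cd163, Cd68, Clec4f and Csf1r, list median -0.60), and the summed linear level of the 9 was 2431 to 3536 against 3991 to 5701 in the controls. For 50 mg/kg DE-71 that sum was 3705 to 4832 against 2973 to 4409, with no Kupffer marker called. There 3 of 11 hepatocyte markers fell (Cyp2e1, Cps1 and Serpina1), with sums of 116308 to 131360 against 131760 to 137594. Hepatocyte sums also lay below all controls at 15 and 50 mg/kg PBDE-47 (126444 to 129835 and 122998 to 127802 against 129868 to 132835). So did those at 45 mg/kg phenobarbital (143034 to 145656 against 148377 to 155223). No hepatocyte marker was called at these doses, and Ccnd1 was called only at 50 mg/kg PBDE-47 among them. At 50 mg/kg DE-71 Kdr fell among 8 endothelial markers (sums 2369 to 3599 against 3460 to 4398). Lrat and Pdgfrb fell and Des rose among 11 stellate markers (2439 to 5003 against 3443 to 5691). Rhag rose among 11 erythroid markers (13896 to 18218 against 11841 to 18351), Ccl5 among 11 lymphocyte markers (360 to 520 against 278 to 379), and none of 5 neutrophil markers was called. Kdr, Rhag and Ccl5 were each the only call of their list there, a share near the 10.2% of all genes. Rhag was also dim, with a mean of 3.56. Ccl5 was the brightest lymphocyte marker, with a mean of 6.81, and so weighed most in the lymphocyte sum. Epcam was the 1 of 6 cholangiocyte markers called. It rose at 45 mg/kg phenobarbital (2.7% of all genes called) and at 15 and 50 mg/kg PBDE-47 (0.823% and 4.03%). It also rose at 15 and 50 mg/kg DE-71 (1.24% and 10.2%). The sums at 50 mg/kg were 587 to 848 against 303 to 383 for PBDE-47 and 532 to 813 against 230 to 348 for DE-71. These linear sums largely follow Epcam itself, which had a mean of 8.27 where the other cholangiocyte markers had means from 3.29 to 5.18. The marker calls are from all samples, with no values given for single replicates left out. With 1 replicate left out, calls over all genes at 50 mg/kg DE-71 ran from 388 to 1963 (reported 1448). No defining marker was at 0 on this scale, and the part of these cell types in the fall of Ccnd1 was not tested.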

How the data were processed

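RNA from left-lobe liver was measured on 74 oligonucleotide arrays. The deposited values are log2 signals that the authors made with RMA, per the submitters' processing notes (version not given in the sources used here); agents appeared to have been normalized separately, so doses were compared only with controls of their own agent. GEO's platform annotation gave 20826 of 31099 probe sets a single gene, 436 several and 9780 none, beside 57 control probe sets. For each of 14217 genes the probe set of highest mean was kept. One limma 3.58.1 model (R 4.3.3) with 15 group means was fitted to 72 samples (57 residual degrees of freedom), with Benjamini-Hochberg adjustment over all genes in each comparison and a threshold of 0.05. The fit was tested on simulated data. Arrays give no count depth; their number limits the precision.

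Every member could be named, with the called members or otherwise the 4 of lowest p in each comparison, and up to 4 called genes of each other list. The members, lists and tests were chosen with earlier results of these data known, so the member mean has no p. Ccnd1 by each probe set and the mean without 3 members were alternatives chosen after seeing the data; leaving out samples, another fit or normalization and a replicate block were the others. Promoters are from RefSeq. Arrays sharing a replicate number did not deviate together (median r between 0.00072 and 0.070 by agent), and the labels do not say that numbers pair animals.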

Additional observations from a re-analysis of the deposited data

Results flagged for a closer look

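In 285 sets of values, each from 1 group of 4 or 5 samples, tested with Dixon's criterion at the 95% level, 10 held a sample that lay apart from the rest; chance gives about 1 in 20. Replicate 5 of 250 mg/kg PCB126 was low for the helicase mean (6.68, others 7.38 to 7.61), Mki67 (6.08, others 7.61 to 8.22) and Ccne2 (5.95, others 6.82 to 7.03). In the PCB126 controls Mki67 was 6.87 in replicate 2, where the others had 7.91 to 8.17. At 50 mg/kg PCB126, Cdk2 was 6.77 in replicate 5 (others 7.02 to 7.10) and Gadd45b was 4.55 in replicate 4 (others 3.87 to 4.07). In the DE-71 controls Cdc25b was 8.08 in replicate 3 (others 7.18 to 7.39) and Gadd45b was 5.26 in replicate 4 (others 4.64 to 4.78). Ccnb1, the cyclin of mitotic entry, was 6.88 in replicate 4 of 50 mg/kg PBDE-47 (others 7.88 to 8.0). Pcna was 10.28 in replicate 3 of 5 mg/kg phenobarbital (others 9.91 to 9.99).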

How the results depend on the processing

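Of 267 alternative counts of called members, 260 were within 1.5 times the reported count, and all 199 alternative member means moved by less than 1 SD between samples. Both criteria were easily met. Most reported counts were 0, and leaving out 1 sample seldom moves a group mean by a whole SD. The member mean stayed below the controls in every alternative at 5 mg/kg phenobarbital, 0.1 mg/kg PBDE-47 and 15 and 50 mg/kg DE-71; at each of the other 7 doses at least 1 alternative gave the opposite sign. The count of called members at 50 mg/kg PBDE-47 was 0 to 1 when 1 replicate was left out. At 50 mg/kg DE-71 it was 0 to 2 when 1 replicate was left out and 0 with array weights. The difference in Ccnd1 between DE-71 and PBDE-47 at 50 mg/kg changed sign to 0.0296 with quantile normalization and 0.21 with array weights, and ran from -0.36 to 0.17 with 1 replicate left out. With the replicate block, Ccnd1 differed by -1.36 at 50 mg/kg PBDE-47 (adjusted p = 0.0040, limma) and -1.37 at 50 mg/kg DE-71 (0.0022), and the counts of called members were 1 and 1; the block took the call from Tob1 (0.0654). The unadjusted count at 15 mg/kg DE-71 went from 11 to 20 with it, and at 50 mg/kg from 6 to 3. The block follows replicate numbers that the samples merely share. Over all alternatives the adjusted p of Ccnd1 ran from 0.0040 to 0.079 at 50 mg/kg PBDE-47 and from 0.000107 to 0.15 at 50 mg/kg DE-71. Gadd45b gave no value where genes with a mean below 6 were left out. Counts over all genes ran from 12 to 59 at 5 mg/kg phenobarbital (reported 15), 344 to 836 at 45 mg/kg (384), 0 to 4 at 50 mg/kg PCB126 (1), 61 to 339 at 15 mg/kg (117) and 491 to 991 at 50 mg/kg PBDE-47 (573), 43 to 307 at 15 mg/kg (177) and 350 to 1911 at 50 mg/kg DE-71 (1448), and for the difference between agents 0 to 2 at 15 mg/kg (2) and 6 to 57 at 50 mg/kg (17), leaving aside single replicates. With 1 replicate left out they ran from 5 to 24, 233 to 356, 0 to 1, 44 to 116, 359 to 615, 101 to 191, 388 to 1963, 0 to 2 and 2 to 71 in the same order, and from 4 to 8 at 250 mg/kg PCB126 (8). The cause of these movements was not tested.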
